A study of Mus musculus with 12 samples.

Results

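Aortic arches of Apoe-/- mice after 24 weeks on a high-fat diet, the latest time studied, were compared with arches of wild type mice after 16 weeks on the same diet. The comparison takes the 3 arrays titled as knockout pools 10, 11 and 12 against the 3 titled as control pools 16, 17 and 18, which are 6 of the 12 arrays of the series. Both groups were of the C57BL/6 strain, with no drug given to the knockout mice per their titles. They began the diet (21% fat, 0.15% cholesterol) at 8 weeks of age and were fasted overnight before death. The Apoe-/- mice were therefore 32 weeks old at death and the wild type mice 24 weeks old, so that genotype, age and time on the diet change together and cannot be told apart here. Each pool joined the arches of 3 mice, with 9 mice to a group, and p-values measure the spread between such pools. The other 6 arrays held Apoe-/- mice after 16 weeks (pools 4, 5 and 6) and 8 weeks (pools 1, 2 and 3) of the diet. The titles say only aorta, while the tissue labels and the design text say that arches were pooled from whole aortas collected. No lesion size was analysed here, and the wild type mice were not studied at 24 weeks.

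Apolipoprotein E is the ligand by which remnant lipoproteins are taken up by the liver. Mice that lack it carry high plasma cholesterol, and on a fat-rich diet they form plaques in the aortic root and arch. In a plaque, monocytes enter the wall and become macrophages, which load themselves with lipid and are then called foam cells. Smooth muscle cells of the wall are known to lose contractile proteins and to make matrix in such lesions, and advanced plaques can hold cartilage-like and calcified areas.

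Every value is a log2 ratio of a pool over a common reference, which was RNA of Apoe-/- arches in which the 3 diet times had equal parts. The table names no log base, and base 10 and the direction were settled from the values (Apoe is higher in wild type arrays). A ratio near 0 thus means a level close to the knockout average, and the reference drops out of a difference between groups. The ratios carry no signal level, so levels of different genes could not be compared and the tissue could not be checked by the abundance of its markers. Over all 39556 probes the arrays of the 24-week pools correlated negatively with the wild type arrays (9 pairs, median r = -0.431, lowest -0.512, highest -0.229). They were also negative with the Apoe-/- arrays at 8 weeks (median r = -0.538) and 16 weeks (-0.329), while wild type arrays were positive with the arrays of 8 weeks (0.625) and 16 weeks (0.316). The labels name the dyes, and groups can lie on opposite sides of a reference mixed from all Apoe-/- times, so the direction was kept.

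Of 19705 genes tested with limma, 4504 (22.9%) passed an adjusted p of 0.05, 2285 higher in Apoe-/- arches (11.6%) and 2219 lower (11.3%). The rises were larger than the falls. At least 2-fold rises numbered 849 (4.31% of the genes tested) and 2-fold falls 190 (0.964%), while 289 genes rose and 5 fell by at least 4-fold, and 46 rose and 0 fell by at least 16-fold. The median difference over all genes was -0.044 on the log2 scale. Of the genes called at 2-fold, 81.7% were higher, a share that was 59.1% (562 higher, 389 lower) after quantile normalization. The number of small falls depended on single pools: 1388 genes were lower without pool 11, 1344 without pool 12, 1460 without pool 17, and 3430 without pool 2 of the 8-week group, which held 2 mice and enters through the shared estimate of the spread. Without the whole 8-week group 3399 were lower.

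Apoe itself stood near the reference in the knockout arches, at 0.23, -0.00 and 0.05 in pools 10, 11 and 12, against 2.62, 2.01 and 2.85 in wild type pools 16, 17 and 18. It was 5.28-fold lower in Apoe-/- arches (log2 difference -2.40 ± 0.17 SE, limma adjusted p = 2.59e-06). Apoe was used to settle the direction of the ratio, so its direction is no separate check of the labels. The knockout signal equals that of a reference that is itself knockout, so its distance from background is unknown and the fold can be too small. Of the 15 largest falls, 7 lay on chromosome 7, the chromosome of Apoe, where 23 of 1658 tested genes (1.39%) fell by at least 2-fold. That share was 0.964% over all genes, and it was higher on chromosomes X (1.86%) and 3 (1.59%) than on chromosome 7. Falls of any size were called for 241 of the 1658 genes (14.5%), the highest share of any chromosome, against 11.3% over all genes. Chromosome 7 held 1658 of the 19705 genes tested.

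Mrps12, which encodes a mitochondrial ribosomal protein, had ratios of 0.18, -0.06 and 0.09 in the 24-week pools, against 2.51, 2.47 and 2.57 in wild type pools. Its difference from wild type was -2.45 at 24 weeks, with -2.52 after 8 weeks and -2.67 after 16, all against the same wild type arrays. Vmn2r29 (a vomeronasal receptor gene) and the zinc finger genes Zfp111 and Zfp74 fell by 2.42, 2.04 and 1.95 on the log2 scale. After 8 weeks their differences from wild type were -2.38, -1.87 and -2.05. Between 24 and 8 weeks Mrps12 differed by 0.07 ± 0.12, Vmn2r29 by -0.05 ± 0.12, Zfp111 by -0.17 ± 0.20 and Zfp74 by 0.11 ± 0.20 (SE), and none passed against 8 or 16 weeks. Bcam, a laminin-binding adhesion protein, had ratios of -0.25, -0.71 and -0.76 in Apoe-/- pools, against 1.76, 1.95 and 2.03 in wild type pools, and its difference from wild type was -0.95 after 8 weeks of diet, -1.69 after 16 and -2.48 after 24. The 24-week pools were lower than the 16-week pools by 0.79 ± 0.20 (adjusted p = 0.0463), a call lost under 9 of the alternatives. Ppp1r14a, the 7th gene, codes for the smooth muscle inhibitor of myosin phosphatase and is described below with the contractile genes.

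**Figure D1:**
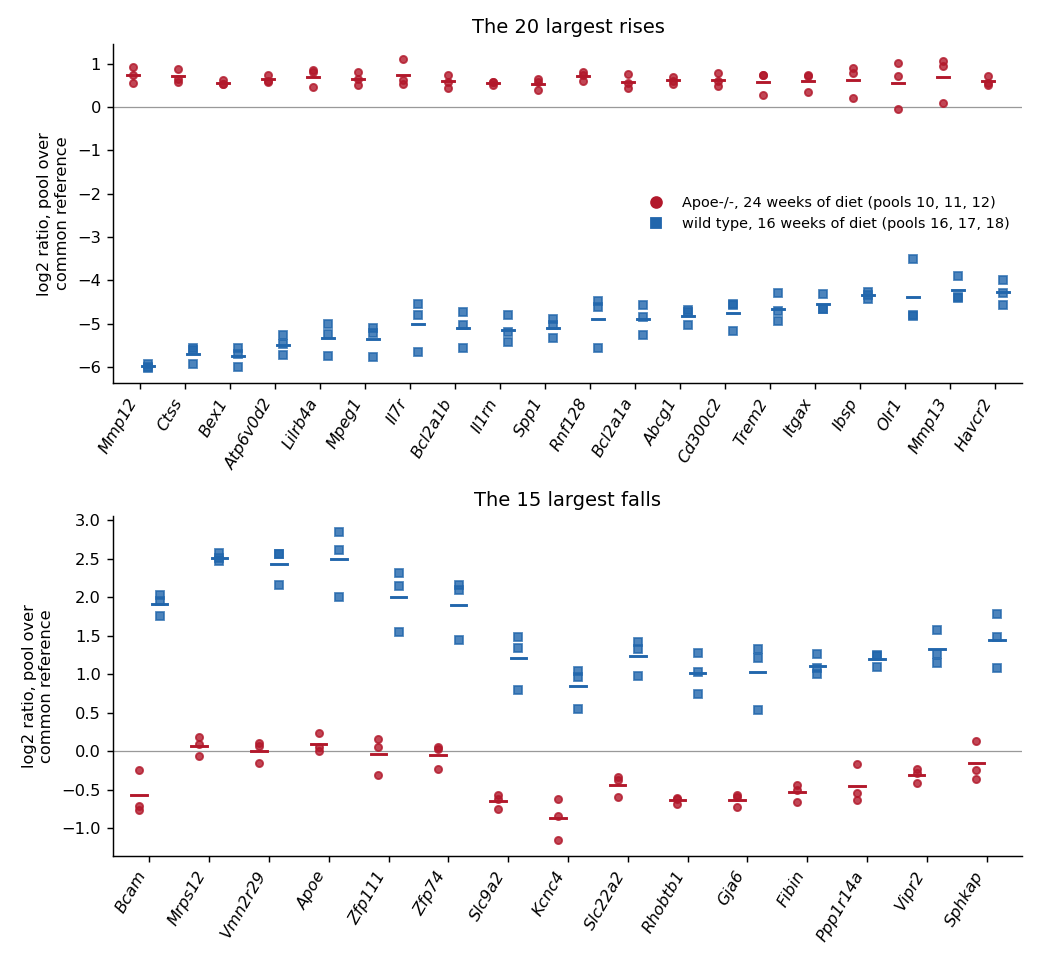
Log2 ratio of each pool over the common reference for the 20 largest rises (top) and the 15 largest falls (bottom), with Apoe-/- pools as red circles left of wild type pools as blue squares and lines at group means. In the rises the Apoe-/- pools lie together near or above 0 and the wild type pools lie far below, down to -6.02 for Mmp12.

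The 3 largest rises were Mmp12, Ctss and Bex1. Mmp12, the macrophage elastase, had ratios of 0.55, 0.92 and 0.73 in Apoe-/- pools, against -5.93, -6.02 and -6.00 in wild type pools. The pools of each group lay close together, and the difference was 6.72 ± 0.34, or 105-fold (95% interval 62.9 to 176, adjusted p = 4.53e-07). Ctss, the cathepsin that trims the invariant chain in antigen-presenting cells, was 84.6-fold higher, with 0.59, 0.89 and 0.64 in Apoe-/- pools against -5.56, -5.93 and -5.60 in wild type pools. Bex1, better known from neurons, rose 79.4-fold, with 0.54, 0.62 and 0.53 in Apoe-/- pools against -5.69, -6.00 and -5.56 in wild type pools. Atp6v0d2, which belongs to the proton pump that acidifies lysosomes and is prominent in osteoclasts, was 69.9-fold higher (0.60, 0.75 and 0.57 against -5.46, -5.73 and -5.27). Wild type ratios this low are close to the lowest value of the table, which is -2.0 on the deposited log10 scale, so these folds can be too small.

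The other genes among the 20 largest rises had varied known roles. Spp1 (osteopontin) rose 49.4-fold and Ibsp (bone sialoprotein) 31.4-fold. Among surface receptors of myeloid cells, Lilrb4a rose 65.7-fold, Cd300c2 41.7-fold, Trem2 37.5-fold, Itgax (the integrin chain CD11c) 35.6-fold, Olr1 (the oxidised LDL receptor LOX-1) 30.9-fold and Havcr2 (the receptor TIM-3) 29.4-fold. The perforin relative Mpeg1 rose 64.4-fold, the IL-1 receptor antagonist Il1rn 51.8-fold, the cholesterol exporter Abcg1 43.0-fold and the collagenase Mmp13 30.6-fold. The survival genes Bcl2a1b and Bcl2a1a, near-identical copies whose probes may share targets, rose 51.9-fold and 44.5-fold. Il7r rose 53.9-fold and the ubiquitin ligase gene Rnf128 48.7-fold.

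Of 32 macrophage markers measured, 27 rose and 0 fell, with a median difference of 2.80. The median ratio over the list was 0.49, 0.53 and 0.36 in the 24-week pools, against -2.03, -2.59 and -2.12 in the wild type pools, so the groups lay far apart and the pools of each lay close together. In bulk tissue a larger number of macrophages and more RNA per macrophage cannot be told apart. The complement genes C1qa, C1qb and C1qc, made mainly by macrophages, rose 13.5-fold, 15.3-fold and 20.6-fold. Adgre1, which encodes the mouse macrophage marker F4/80, rose 15.5-fold, the beta-glucan receptor Clec7a 29.3-fold, the leukocyte tetraspanin Cd53 28.1-fold and Csf1r, the receptor for macrophage colony stimulating factor, 4.59-fold.

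The macrophage markers did not move by the same amount. Cd68, a common macrophage stain, had ratios of 0.22, 0.11 and 0.06 in Apoe-/- pools, against -0.22, -0.18 and -0.07 in wild type pools, a difference of 0.29 ± 0.08 (adjusted p = 0.0171) that did not pass without pool 10 (0.25, adjusted p = 0.0701), 16 (0.26, adjusted p = 0.0659) or 17 (0.28, adjusted p = 0.0609). Itgam, the integrin chain CD11b, had -0.04, -0.44 and -0.28 in Apoe-/- pools against 0.16, 0.15 and 0.64 in wild type pools (difference -0.57, adjusted p = 0.145). The apoptotic cell receptor gene Mertk differed by 0.05 and the scavenger receptor gene Cd163 by 0.14, with adjusted p-values of 0.869 and 0.701. Each of these 4 genes was read by a single probe, and whether those probes respond to their transcript was not tested.

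Of 24 foam cell genes, 19 rose and 0 fell, with a median of 2.81. Beside Trem2, Mmp12, Abcg1 and Olr1, Gpnmb rose 22.7-fold, with 0.32, 0.39 and 0.10 in Apoe-/- pools against -4.34, -4.44 and -3.91 in wild type pools. The lipoprotein lipase gene Lpl rose 9.15-fold, the scavenger receptor gene Msr1 3.54-fold and the fatty acid transporter gene Cd36 2.08-fold. The osteoclast and macrophage phosphatase gene Acp5 rose 12.8-fold (0.58, 0.56 and 0.31 in Apoe-/- pools against -3.22, -3.55 and -2.80 in wild type pools). Fabp4, which macrophages and fat cells share, differed by 0.10 and did not pass.

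**Figure D2:**
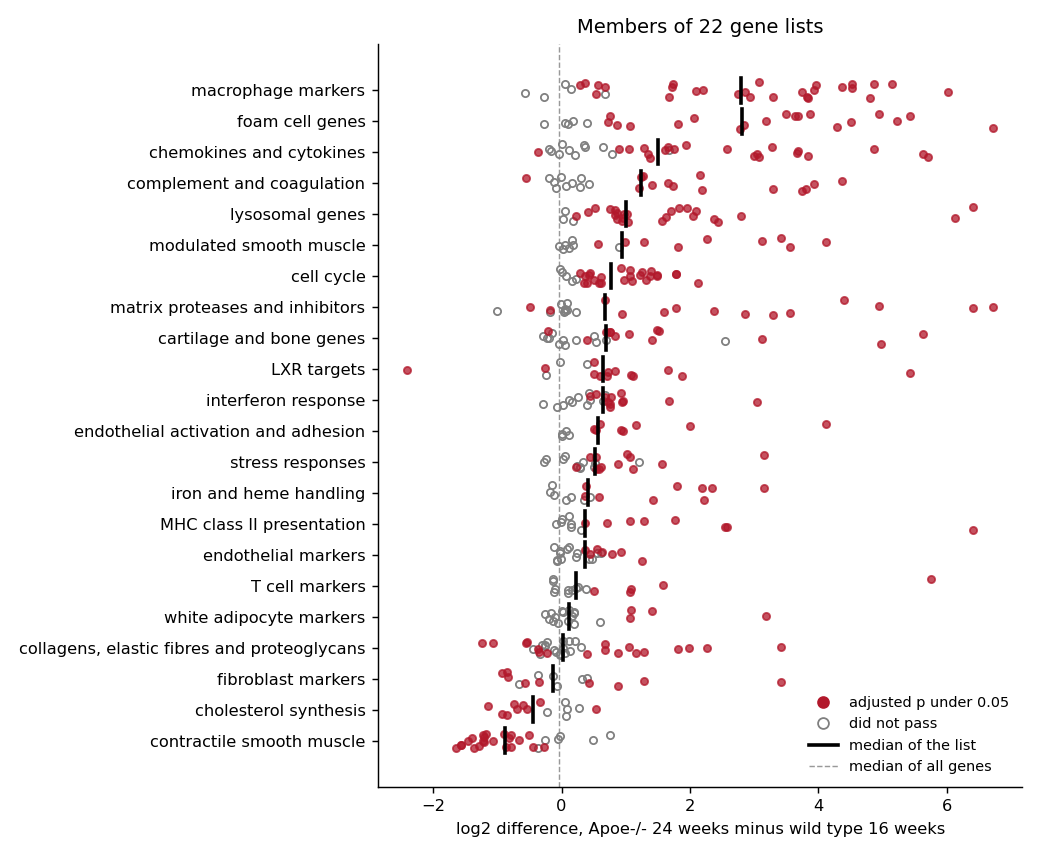
Log2 difference, Apoe-/- at 24 weeks minus wild type at 16 weeks, for the members of 22 gene lists, 1 point a gene, filled where the adjusted p was under 0.05, with a black bar at the list's median. Macrophage markers and foam cell genes have medians of 2.80 and 2.81, contractile smooth muscle genes have a median of -0.88, and the median of all genes is -0.044 (dashed line).

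Of 28 lysosomal genes 25 rose and 0 fell, with a median of 1.0. The list's median ratio was 0.36, 0.34 and 0.24 in Apoe-/- pools against -0.72, -0.66 and -0.90 in wild type pools. The lysosomal sugar hydrolase Gusb had ratios of 0.57, 0.73 and 0.56 against -1.97, -2.15 and -2.42 and rose 6.95-fold. The protease cathepsin D, encoded by Ctsd, rose 5.39-fold, with 0.68, 0.52 and 0.54 in Apoe-/- pools against -1.83, -1.90 and -1.82 in wild type pools. Ctsk, the collagen-degrading cathepsin K, rose 5.21-fold and Ctsb 2.94-fold. The average of Ctsl rose 4.15-fold, but its probes disagreed, with differences of -0.01 and 4.12. Lamp1 (0.05), Scarb2 (0.18) and Atp6v1a (0.02) did not pass.

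Promoter windows of RefSeq (GRCm38.p6, 250 bases before to 50 after the start) were searched on both strands for letters known from these gene classes. The motifs and their pairing with lists were chosen after the list results were known, and no test was made. Shares count the first listed start of each gene. CACGTG, the E-box at the core of the element bound by TFEB, a regulator of lysosomal genes, stood in 7 of 22 lysosomal gene windows (31.8%) and in 7.24% of the 27025 windows of all genes. It was found for Ctsd, Ctsl, Glb1, Gla, Mcoln1, Lamp1 and Atp6v1a, of which Lamp1 and Atp6v1a are members that did not pass. GAGGAAG, a form of the site of the macrophage factor PU.1, stood in 7 of 24 macrophage marker windows (29.2%), 7 of 18 foam cell gene windows (38.9%) and 13.5% of all windows. Itgam, Nceh1 and Cd300lf, members that did not pass, hold it too. TGANTCA, the AP-1 site, stood in 3 of 16 windows of the matrix protease list (18.8%: Mmp13, Mmp3 and Plaur) and in 7.93% of all. The strict CArG box, bound by SRF in muscle genes, stood in 1 of 22 contractile gene windows (4.55%) and 1.57% of all. A CArG box with at most 1 G or C in its core, a form tried after the strict form was absent from the windows of Acta2 and Cnn1, stood in 3 of 22 (13.6%: Pcp4l1, Myl9 and Acta2) and 10.0% of all.
The 250 bases before the start are given, in lower case and 5′ to 3′ on the strand of the gene, for the largest riser with the E-box (Ctsd), the cathepsin K gene named with the osteoclast genes, both proteases with an AP-1 site among the largest rises, and the main contractile gene; capitals mark CACGTG in Ctsd, GAGGAAG in Ctsk (which is in neither list paired with that motif), TGANTCA in Mmp12 and Mmp13 and the wider CArG form in Acta2, at bases -245 and -98 in Ctsd, -233 and, on the other strand, -59 in Ctsk, -44 in Mmp12, -35 in Mmp13 and -84 and -34 in Acta2.
Ctsd, GRCm38.p6 chr7:142387828-142388077, minus strand: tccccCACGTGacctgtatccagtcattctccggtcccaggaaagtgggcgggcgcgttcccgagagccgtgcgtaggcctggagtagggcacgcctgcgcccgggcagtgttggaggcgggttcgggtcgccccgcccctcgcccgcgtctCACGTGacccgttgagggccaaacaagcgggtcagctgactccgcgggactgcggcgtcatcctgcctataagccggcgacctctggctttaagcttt
Ctsk, GRCm38.p6 chr3:95498960-95499209, plus strand: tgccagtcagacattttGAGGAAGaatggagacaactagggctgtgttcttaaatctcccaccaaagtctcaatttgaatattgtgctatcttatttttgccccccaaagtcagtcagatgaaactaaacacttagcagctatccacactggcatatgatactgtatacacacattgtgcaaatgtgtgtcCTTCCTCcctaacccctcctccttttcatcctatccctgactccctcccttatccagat
Mmp12, the later of the listed starts, GRCm38.p6 chr9:7347124-7347373, plus strand: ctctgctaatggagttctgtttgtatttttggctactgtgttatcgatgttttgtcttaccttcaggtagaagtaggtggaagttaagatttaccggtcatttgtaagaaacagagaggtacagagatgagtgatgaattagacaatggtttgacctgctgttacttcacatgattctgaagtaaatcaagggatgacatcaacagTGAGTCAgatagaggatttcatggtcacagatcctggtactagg
Mmp13, GRCm38.p6 chr9:7272264-7272513, plus strand: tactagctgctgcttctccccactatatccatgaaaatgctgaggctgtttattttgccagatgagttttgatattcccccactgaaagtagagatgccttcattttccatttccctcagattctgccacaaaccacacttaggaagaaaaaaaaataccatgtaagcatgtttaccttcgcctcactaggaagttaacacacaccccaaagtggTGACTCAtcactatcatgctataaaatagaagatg
Acta2, GRCm38.p6 chr19:34255374-34255623, minus strand: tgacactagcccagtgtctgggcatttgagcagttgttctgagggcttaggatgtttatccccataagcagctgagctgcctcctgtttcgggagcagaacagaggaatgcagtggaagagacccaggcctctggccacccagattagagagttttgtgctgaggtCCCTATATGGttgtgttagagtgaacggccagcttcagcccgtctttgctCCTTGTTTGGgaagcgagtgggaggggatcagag
The earlier Mmp12 start holds GAGGAAG at -87 and no TGANTCA. Cnn1 and the 3 listed starts of Acp5 hold none of the motifs searched for them.

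Of 32 chemokines and cytokines, 20 rose and 1 fell, with a median of 1.5. Ccl3, a chemokine made by macrophages, rose 14.3-fold, with 0.88, 0.61 and 0.58 in Apoe-/- pools against -2.78, -3.05 and -3.63 in wild type pools. Ccl2, the monocyte attractant, rose 12.8-fold, with 0.47, 0.77 and 0.55 against -2.91, -3.22 and -3.13. Il6 rose by 4.86 ± 0.81 on the log2 scale, with a wider error. The member that fell was Tgfb1, by 0.37 on the log2 scale (-0.10, -0.10 and -0.13 in Apoe-/- pools against 0.22, 0.27 and 0.28 in wild type pools). Tnf (-0.17), Il1a (-0.20) and Cx3cl1 (-0.00) did not pass. Of 23 members of the efferocytosis list, which covers the uptake of dead cells, 8 rose and 0 fell (5 rises without pool 12). The 8 were the GTPase gene Rac2 (10.9-fold), the CD47 receptor gene Sirpa (7.87-fold), Cd47 itself (2.43-fold), Stab1, Cd300a, Pros1, Calr and Gas6. Of the receptor genes, Mertk (0.05), Axl (-0.02), Tyro3 (-0.15), Timd4 (0.13), Havcr1 (0.07), Lrp1 (0.29), Itgb3 (-0.31) and Stab2 (-0.75) did not pass.

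Lymphocyte markers rose in part. Of 15 T cell markers 5 rose and 0 fell, with a median of 0.22, while 11.6% of all genes rose. The count was 3 without pool 10, 11, 17 or 18. Il7r, named above, had the largest rise of the list (53.9-fold). Cd2 lost its call under scale and quantile normalization and without pool 10, 11, 17 or 18 (limma adjusted p between 0.0667 and 0.282). The T cell receptor chains gave an uneven picture: Cd3g rose 2.08-fold (not past the threshold after quantile normalization, 0.55, adjusted p = 0.271), but Cd3d (-0.10) and Cd3e (0.10) did not pass, and Cd4 (0.10) and Cd8a (0.38) did not either. Cd5 rose 3.00-fold, with 0.55, 0.18 and 0.12 in Apoe-/- pools against -1.11, -1.57 and -1.22 in wild type pools. Of 15 B and plasma cell markers 3 rose and 1 fell. The sialic acid receptor Cd22 rose 21.5-fold and the adaptor Blnk 11.5-fold. Cd79a (-0.20), Cd79b (0.62) and Ms4a1 (0.36), the genes that define B cells, did not pass. The member that fell was Pax5 (-0.29). Its call was lost with each array's median subtracted, with 1 probe per gene, and without pool 10, 11, 12, 16, 17 or 18. It was also lost without pool 1, 4, 5 or 6 (limma adjusted p between 0.0537 and 0.159 over all of these). Cd22 and Blnk are known from some myeloid cells as well, and which cells carried them was not tested.

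Antigen presentation genes of MHC class II rose in 8 of 15 cases, with 0 falls and a median of 0.36. H2-Eb1 rose 5.84-fold, the costimulatory gene Cd86 5.96-fold and the peptide loading gene H2-DMa 3.42-fold. H2-Aa rose less, and its call was lost without pool 11, 12, 16 or 17 (0.34 to 0.36, limma adjusted p between 0.0543 and 0.0694). The other 7 members did not pass. The interferon response list had 12 rises and 0 falls among 23, with a median of 0.64. The median was 0.33 with 8 rises without pool 17, there were 8 rises without pool 11 and 17 without pool 18, and quantile normalization gave a median of 0.36 with 8 rises. Its largest member was the chemokine gene Cxcl10 (0.03, 0.43 and -0.84 in Apoe-/- pools against -2.41, -3.91 and -3.21 in wild type pools, 8.27-fold), and Isg15 rose 1.91-fold. Under quantile normalization Cxcl10 did not pass (log2 difference 1.27, adjusted p = 0.289). Of 13 neutrophil markers 4 rose (1 after quantile normalization) and 0 fell, led by S100a8 at 4.72-fold (1.24, adjusted p = 0.137 after quantile normalization), while the granule genes Elane (-0.12), Mpo (0.09) and Ltf (0.03) did not pass. Of 10 mast cell markers 1 rose and 1 fell, near the shares over all genes (11.6% higher, 11.3% lower), and Cpa3, Mcpt4 and Cma1 did not pass.

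Genes of cell division rose together. Of 30 cell cycle genes 25 rose and 0 fell, with a median of 0.77 and a list median per pool of 0.08, 0.34 and 0.09 in Apoe-/- arches against -0.54, -0.52 and -0.66 in wild type arches. Mki67, the proliferation marker, had 0.27, 0.76 and 0.29 in Apoe-/- pools against -1.50, -1.66 and -1.87 in wild type pools, a 4.34-fold rise. Cenpe, a kinetochore motor, rose 3.43-fold, the mitotic kinase Aurkb 3.42-fold and the mitotic cyclin Ccnb2 2.80-fold. Of the replication helicase genes Mcm2, Mcm5, Mcm6 and Mcm7 none passed (0.16, 0.01, -0.03 and 0.22), while Mcm3 rose by 0.92. Which cells divided was not tested.

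Contractile smooth muscle genes were the list with the most falls: 22 of 28 fell and 0 rose, with a median of -0.88. The list's median ratio was -0.20, -0.35 and -0.31 in Apoe-/- pools against 0.64, 0.79 and 0.44 in wild type pools. Ppp1r14a was 3.11-fold lower, with -0.17, -0.55 and -0.63 in Apoe-/- pools against 1.24, 1.25 and 1.09 in wild type pools. Smtn, the actin-binding smoothelin of contractile cells, had -0.77, -0.57 and -1.22 against 0.73, 0.75 and 0.64 (2.95-fold lower). Pcp4l1 was 2.94-fold lower and the myosin light chain gene Myl9 2.74-fold lower.

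The defining genes of the list fell by unequal amounts. Cnn1 (calponin) was 2.58-fold lower, with -0.43, -0.62 and -0.66 in Apoe-/- pools against 0.68, 0.96 and 0.74 in wild type pools. Myh11, the smooth muscle myosin heavy chain, was 2.31-fold lower, with -0.22, -0.35 and -0.28 against 1.03, 1.16 and 0.58. Acta2, the smooth muscle actin whose promoter is given above, was 2.10-fold lower (-0.29, -0.36 and -0.63 against 0.60, 0.80 and 0.56). Tagln (transgelin) was 1.41-fold lower. Myocd, the coactivator that drives this program with SRF, fell by 0.87 on the log2 scale. Tpm2 (-0.06), Des (-0.02), Actg2 (-0.37), Csrp1 (-0.25), Tpm1 (0.49) and Pln (0.75) did not pass. The pools of Tpm1 and Pln, both also made by heart muscle, spread widely, as the heart markers did. Fewer contractile cells, less RNA per cell and a larger share of RNA from other cells cannot be told apart in these ratios.

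**Figure D3:**
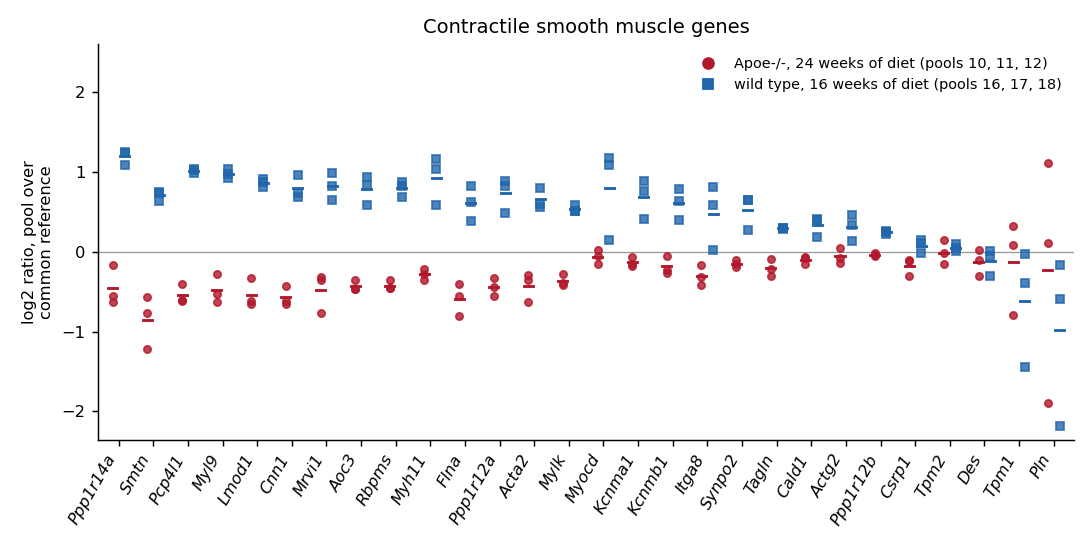
Log2 ratio of each pool over the common reference for the 28 contractile smooth muscle genes, ordered by their difference, with Apoe-/- pools as red circles left of wild type pools as blue squares and lines at group means. The groups separate from Ppp1r14a to Csrp1, and Pln and Tpm1 at the right spread over the pools of both groups.

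Genes that smooth muscle cells are known to gain in lesions rose in 9 of 16 cases, with 0 falls and a median of 0.94. Vcam1, an adhesion molecule of activated endothelium and smooth muscle, rose 17.4-fold, with 0.05, 0.71 and 0.82 in Apoe-/- pools against -3.59, -3.47 and -3.73 in wild type pools. The protease inhibitor Timp1 rose 11.8-fold, the proteoglycan lumican (Lum) 10.6-fold and osteoprotegerin (Tnfrsf11b) 8.67-fold. In these genes pool 10 was the lowest of the 24-week pools. The transcription factor genes Klf4 (0.90, adjusted p = 0.115), Klf5 (-0.04) and Tcf21 (0.16) did not pass.

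Of 21 endothelial markers 7 rose and 0 fell, with a median of 0.36. Pecam1 had 0.09, -0.12 and -0.05 in Apoe-/- pools against -0.05, 0.03 and -0.00 in wild type pools, a difference of -0.02 (adjusted p = 0.915), and Cdh5 differed by -0.07. Plvap, the diaphragm protein of fenestrated endothelium and small vessels, rose 2.40-fold, and Vwf, the carrier of factor VIII, 1.89-fold. Of the 12 adhesion genes 8 rose: beside Vcam1, Icam1 rose 1.94-fold, the leukocyte integrin Itgal 4.00-fold and P-selectin (Selp) 1.41-fold.

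Matrix genes moved in both directions. Of 35 collagens, elastic fibre genes and proteoglycans 11 rose and 7 fell, with a median of 0.03, and the falls numbered 3 without pool 12, 4 without pool 16, 10 without pool 2 and 12 with array weights. Col8a1, a short-chain collagen of injured vessels, rose 4.82-fold, with 0.34, 0.43 and 0.44 in Apoe-/- pools against -1.93, -1.77 and -1.90 in wild type pools, and its probes gave 1.21 and 3.33. The latent TGF-beta binding protein gene Ltbp2 rose 3.96-fold, fibronectin (Fn1) 3.51-fold, Col3a1 2.43-fold and Col1a1 2.07-fold. Osteoglycin (Ogn) was 2.37-fold lower and the basement membrane collagen Col18a1 2.09-fold lower, with -0.17, -0.37 and -0.45 against 0.76, 0.79 and 0.63. Eln, the elastin gene, differed by -0.02. Of 15 fibroblast markers 4 rose and 5 fell, a split that moved with single pools (2 rises without pool 10, 11 or 17, 2 falls without pool 12 or 18, and 3 falls without pool 16). Lum, named above and a member of both lists, had the largest rise of each (3.41 on the log2 scale). Dcn and Pcolce rose as well, and both calls were lost without pool 10, 11 or 17. Serpinf1 was 1.89-fold and Dpep1 1.80-fold lower, and Pdgfra (-0.07) and Dpt (-0.13) did not pass.

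Among matrix proteases and their inhibitors 12 of 23 rose, and 2 fell. The membrane protease Adam8 rose 21.2-fold, with 0.73, 0.69 and 0.74 in Apoe-/- pools against -3.75, -3.75 and -3.56 in wild type pools. The stromelysin Mmp3 rose 7.22-fold, with 0.14, 1.0 and 0.92 in Apoe-/- pools against -1.91, -2.13 and -2.46 in wild type pools, so that pool 10 lay below the other 24-week pools, as it did for Mmp13 (0.10, 1.07 and 0.94 against -3.91, -4.40 and -4.38). The gelatinases Mmp2 (0.06) and Mmp9 (-0.01) did not pass.

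Cartilage and bone genes rose in 12 of 25 cases and fell in 1, with a median of 0.69 (7 rises and 0 falls after quantile normalization). Ibsp, a mineral-binding protein of bone, had 0.79, 0.21 and 0.90 in Apoe-/- pools against -4.43, -4.26 and -4.33 in wild type pools. Runx2, the bone-forming transcription factor, rose 2.79-fold, with 0.12, 0.66 and 0.57 in Apoe-/- pools against -1.0, -1.12 and -0.97 in wild type pools. The bone matrix gene Mepe rose 2.86-fold, a call lost after quantile normalization (1.23, adjusted p = 0.0751). Sox9 (-0.29), Alpl (-0.15), Sp7 (-0.20) and Bmp2 (0.03) did not pass, so the factors and enzymes of the list did not move as a block.

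Genes of lipid handling split by function. Of 16 genes listed as targets of the oxysterol receptor LXR, with the LXR genes Nr1h3 and Nr1h2 among them, 11 rose and 2 fell. The median was 0.65, and the largest fall was Apoe itself, the deleted gene. The phospholipid transfer protein Pltp rose 3.65-fold, with 0.43, 0.32 and 0.25 in Apoe-/- pools against -1.57, -1.72 and -1.31 in wild type pools, the LDL receptor degrader Mylip 3.17-fold, the LXR gene Nr1h3 2.17-fold and the cholesterol exporter Abca1 1.64-fold. The other LXR gene, Nr1h2, was the second fall, with 3 probes between -0.39 and -0.17. Its call was lost without pool 11 (-0.25, limma adjusted p = 0.055) or 12 (-0.23, 0.0658). Of 14 cholesterol synthesis genes 8 fell and 1 rose, with a median of -0.44. Srebf2, the master regulator of that pathway, was 2.20-fold lower, with -0.31, -0.35 and -0.49 in Apoe-/- pools against 0.52, 0.82 and 0.93 in wild type pools. Squalene epoxidase (Sqle) was 1.90-fold, Fdft1 1.80-fold and Fdps 1.68-fold lower, while Hmgcs1 (-0.22) and Insig1 (0.06) did not pass.

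Of 23 complement and coagulation genes 13 rose and 1 fell, with a median of 1.23. F7, coagulation factor VII, rose 13.9-fold, with 0.35, 0.58 and 0.41 in Apoe-/- pools against -3.29, -3.34 and -3.43 in wild type pools. Tissue factor (F3) was 1.47-fold lower, with -0.06, -0.07 and 0.01 against 0.59, 0.54 and 0.41. Of 16 iron and heme genes 9 rose and 0 fell: heme oxygenase 1 (Hmox1) rose 8.88-fold, ferritin light chain (Ftl1) 5.09-fold, the iron exporter Slc40a1 4.64-fold and haptoglobin (Hp) 4.57-fold. Of 23 stress response genes 12 rose and 0 fell, among them the chaperone gene Dnajb9 (2.96-fold) and the peroxiredoxin gene Prdx1 (2.16-fold). Ddit3, which encodes the apoptotic factor CHOP, differed by -0.27 (adjusted p = 0.0520).

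The counts that follow stand beside shares of 11.6% higher and 11.3% lower over all genes tested. Energy metabolism changed in few genes. Of 20 oxidative phosphorylation genes 1 rose and 0 fell (median 0.06). It was Cox5a, whose 2 probes gave 0.07 and 0.78. The call of Cox5a was lost after quantile normalization, with 1 probe per gene and without pool 10, 11, 12, 17 or 18. Of 18 fatty acid oxidation genes 0 rose and 1 fell (median -0.01). Of 21 glycolysis and hypoxia genes 3 rose and 0 fell, so the rises lay near the share over all genes. The number of rises was 1 without pool 11, 12 or 18, 7 without pool 2 and 9 with array weights. In TGF-beta and BMP signalling 1 of 24 rose and 5 fell: the binding protein Ltbp4 fell by 1.38 and Tgfb3 by 0.77 on the log2 scale. Clock genes of the Per phase fell in 4 of 8 cases and rose in 1. Hlf was 2.53-fold lower, with -0.36, -0.54 and -0.45 in Apoe-/- pools against 0.94, 0.85 and 0.87 in wild type pools, and Nr1d1 1.97-fold lower. Of the 5 genes of the opposite clock phase 0 passed the test, and Arntl differed by -0.25. The sources used here do not give the hour of death. Of 14 immediate early genes 3 rose, led by Junb at 4.23-fold and Egr2 at 4.18-fold, and Fos (-0.13) and Jun (-0.22) did not pass.

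Markers of tissues next to the arch were examined in the same pools. Over all genes tested 11.6% rose and 11.3% fell. The counts below are set beside these shares and are not read as changes of a whole tissue. Of 15 cardiac muscle markers 0 passed, but their median ratio was 0.11, -1.89 and 0.67 in Apoe-/- pools against -0.62, -2.24 and -0.63 in wild type pools, so that pools 11 and 17 lay low. Myh6, a heart muscle myosin, had 0.25, -1.94 and 0.69 against -0.64, -2.51 and -1.0. Of 13 skeletal muscle markers 1 rose and 0 fell (median -0.08), and of 9 Schwann cell and nerve markers 0 rose and 1 fell (median -0.10). Of 19 white fat markers 4 rose and 0 fell (median 0.11), and the 4 were Lpl, Cfd, Scd1 and Cd36, while Adipoq (0.17), Lep (-0.19) and Plin1 (-0.16) did not pass. Of 14 brown fat markers 0 rose and 2 fell, and Ucp1 differed by -0.16. Of 6 red cell markers 1 rose, Hbb-b1 at 3.57-fold, a call lost after scale or quantile normalization and without pool 10, 12, 17 or 18 (adjusted p between 0.0733 and 0.435). The call of Cfd was lost after quantile normalization (0.41, adjusted p = 0.367) and without pool 12 (1.28, adjusted p = 0.0562). Of 12 glucocorticoid and fasting genes 2 rose, both metallothioneins, with Mt2 at 4.17-fold.

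The knockout groups at 24 and 16 weeks differ in diet time and age, with the genotype held. Between them 1172 of 19705 genes passed (5.95%), 785 higher at 24 weeks (3.98%) and 387 lower (1.96%). This number is not firm: 119 genes passed without pool 4, 144 without pool 11, 203 without pool 12, 266 without pool 6, 676 without pool 10 and 2572 without pool 2. Macrophage markers were higher at 24 weeks in 17 of 32 cases, foam cell genes in 13 of 24, lysosomal genes in 20 of 28 and chemokines and cytokines in 9 of 32, with 0 lower in each. Contractile genes were lower in 11 of 28. Higher than at 16 weeks were 1 of 30 cell cycle genes, 1 of 23 interferon genes and 1 of 15 MHC class II genes, with 3.98% of all genes higher. Their median differences from 16 weeks were 0.29, 0.05 and -0.02, against -0.012 over all genes, so few calls need not mean no change. Against the 8-week group 28.8% of all genes passed, with 14.7% higher, and lysosomal genes were higher in 23 of 28 and cell cycle genes in 24 of 30.

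Among genes called in the same direction against wild type, the largest rise over 16 weeks was that of Spp1 (2.21 ± 0.28, adjusted p = 0.00392). Its difference from wild type was 1.6 at 8, 3.41 at 16 and 5.63 at 24 weeks. The cathepsin gene Ctss stood at 2.39, 4.35 and 6.40, and Mmp12 at 2.6, 4.82 and 6.72, in the same order of times. Mmp3 stood at -0.01, 0.98 and 2.85. The same rule named Clec7a, the leukocyte signalling gene Plek, Mmp13 and Evi2a, each between 1.85 and 1.89 above 16 weeks. These differences use 1 set of wild type arrays, so they are given side by side only. Trem2 (0.93, adjusted p = 0.0540) and Gpnmb (0.59, adjusted p = 0.0960) did not pass between 16 and 24 weeks.

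**Figure D4:**
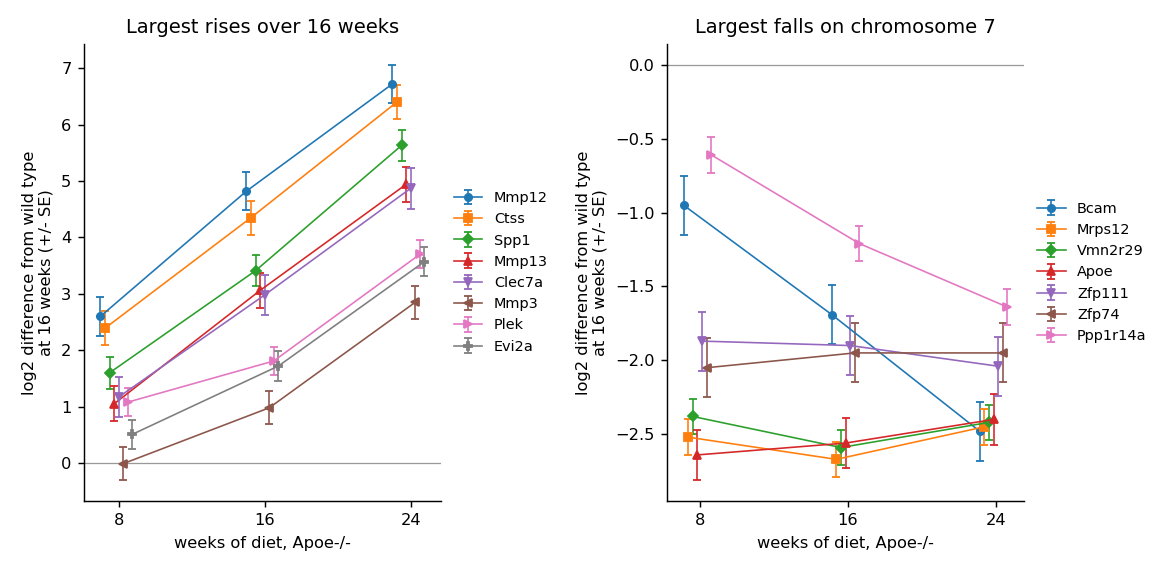
Log2 difference of Apoe-/- arches at 8, 16 and 24 weeks of diet from the same wild type arrays at 16 weeks, with bars at 1 SE and points set side by side at each time. At left are the 8 genes with the largest rise over 16 weeks, among which Mmp12 lies highest with 2.6, 4.82 and 6.72; at right are the 7 largest falls on chromosome 7, where Apoe stays near -2.5 (-2.64, -2.56 and -2.40) and Bcam and Ppp1r14a go lower with time.

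The falls past the 16-week level were smaller. Tcf7l2, a transcription factor of Wnt signalling, had -0.59, -0.81 and -0.82 in 24-week Apoe-/- pools against 0.34, 0.09 and 0.52 in wild type pools, and was 1.20 ± 0.18 lower than at 16 weeks (adjusted p = 0.00774), where its difference from wild type was 0.14. The potassium channel gene Kcnc4 was 1.15 ± 0.17 lower than at 16 weeks (adjusted p = 0.00642), and the smooth muscle gene Smtn 1.10 ± 0.20 lower (adjusted p = 0.0125). Stum was lower by 0.95 ± 0.08 (adjusted p = 0.00125) and Igf2, the fetal growth factor, by 0.96 ± 0.17. Of the contractile genes named above, Cnn1 (-0.81, adjusted p = 0.00583) and Acta2 (-0.55, adjusted p = 0.0201) were lower than at 16 weeks, and Myh11 (-0.30, adjusted p = 0.189) and Tagln (-0.26, adjusted p = 0.134) did not pass.

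A few genes split the 24-week pools while the wild type pools agreed. The median gene spanned 0.155 over the 24-week pools and 0.194 over the wild type pools. Pth, parathyroid hormone, had 2.58 in pool 10 and -4.61 and -3.84 in pools 11 and 12, against -3.71, -4.15 and -4.10 in wild type pools. Rag1, the recombinase of developing lymphocytes, had 1.5, -1.47 and -2.09, and the T cell factor Tcf7 had 0.98, -0.50 and -0.90, so pool 10 was again the high one. The airway secretory genes Scgb3a2 (-1.65, -2.23 and 2.07) and Bpifa1 (-0.87, -1.15 and 1.68) and the secreted lectin gene Reg3g (-0.51, -0.86 and 1.65) were high in pool 12. These genes were picked for their spread over the 24-week pools, among genes whose wild type pools spanned less than 0.5. The agreement of the wild type pools is thus set by the choice, and no test was made. The median ratio of the 15 T cell markers was 0.13 in pool 10, 0.06 in pool 11 and -0.07 in pool 12.

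**Figure D5:**
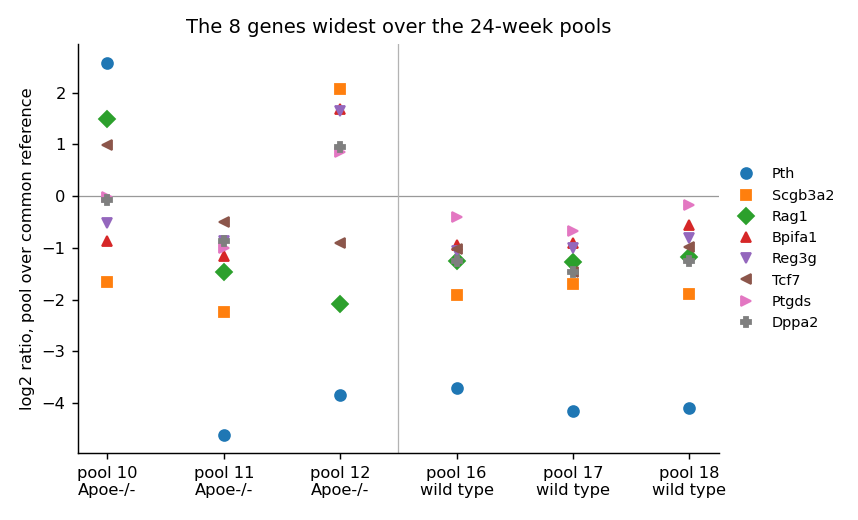
Log2 ratio over the common reference in each Apoe-/- 24-week pool (left) and each wild type pool (right) for the 8 genes with the widest spread over the 24-week pools. Pth, Rag1 and Tcf7 are high in pool 10, and Scgb3a2, Bpifa1 and Reg3g are high in pool 12. Only genes whose wild type pools spanned less than 0.5 were eligible, so the agreement of those pools is set by the choice.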

How the data were processed

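The authors deposited 1 value per probe and array, a log10 ratio of the Cy5-labelled pool over the Cy3-labelled common Apoe-/- reference; dyes, extraction (RNeasy with DNase) and aminoallyl labelling are per the labels' protocols, while no source used here gives the scanner, background correction or normalization. The base and direction of the ratio are not stated with the values and were settled from them. Ratios were multiplied by 3.322 to give log2. Intensities were not analysed here, so the depth of signal behind a ratio is unknown and the number of arrays limits precision.

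Of 39556 probes, 23283 have 1 gene symbol and 16273 none; of the 20551 symbols, 5952 were replaced by current names. Probes of a gene were averaged (19896 genes), and the 19705 that all arrays measured were tested with limma 3.58.1 in R 4.3.3: 4 group means over 12 arrays (8 residual and 2.95 prior degrees of freedom), moderated tests and Benjamini-Hochberg adjustment over all genes, at 0.05. The code was tested on simulated data. Named genes are the 20 largest rises and 15 largest falls with pools that do not overlap. Up to 4 defining and 4 called members per list and direction were named too. Added to them were 8 in each direction that also differ from 16 weeks, and 8 with wide 24-week pools. The wild type pools of those last 8 had to span less than 0.5. Other list members are named where they bear on a list's count. Members, lists and motifs were chosen with earlier results of these data known. No probe level, and so no wild type level near background, could be tested.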

Additional observations from a re-analysis of the deposited data

Results flagged for a closer look

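The largest rises, the largest falls and the genes picked for differing from 16 weeks made up 46 of the named genes. Of these, 33 differed between Apoe-/- arches at 24 and 16 weeks (limma adjusted p under 0.05). The difference of these 33 from wild type was thus not the same at both diet times. The 8 genes picked in each direction were chosen because they passed this test, so their passing adds no support. Other named genes that passed it, such as Cnn1 and Acta2, lie outside the 46. The log2 differences, 24 minus 16 weeks, follow. Among proteases the values were 1.90 for Mmp12, 1.88 for Mmp13, 1.87 for Mmp3 and 2.05 for Ctss. Among matrix proteins they were 2.21 for Spp1 and 1.55 for Ibsp. Among genes of myeloid surface receptors and adhesion they were 1.74 for Lilrb4a, 1.89 for Clec7a, 1.12 for Cd300c2, 1.12 for Itgax and 1.24 for Havcr2. Genes of cytokine signalling gave 1.70 for Il7r and 1.19 for Il1rn, and survival genes gave 1.26 for Bcl2a1b and 1.28 for Bcl2a1a. The remaining rises were 1.54 for Mpeg1, 1.32 for Atp6v0d2, 1.30 for Abcg1, 1.75 for Rnf128, 1.89 for Plek and 1.85 for Evi2a.

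The falls were -0.79 for Bcam, -0.93 for Slc9a2, -1.15 for Kcnc4, -0.77 for Gja6, -0.87 for Fibin, -1.10 for Smtn and -1.21 for Fgb. Further falls were -1.20 for Tcf7l2, -0.96 for Rab17, -0.96 for Denn2b, -0.96 for Igf2 and -0.95 for Stum. Under the alternatives tried, 7 of the 33 passed every time: Ctss, Spp1, Kcnc4, Plek, Evi2a, Tcf7l2 and Stum. The other 26 missed the threshold under at least 1, Bcam and Fgb under 9 each. Diet time and age change together between these groups and cannot be told apart.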

How the results depend on the processing

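Of the 193 named genes called against wild type, 154 passed in the same direction under all 22 alternatives, 39 missed the threshold under at least 1, and 0 reversed. Medians of the gene lists moved by more than the spread between pools as follows; the cause was not tested. With each array's median subtracted the matrix list had a median of 0.07. Scale normalization gave medians of 2.65 for foam cell genes, -0.0 for B cell markers, -0.35 for cholesterol synthesis, 1.09 for complement and coagulation, -0.38 for the Per phase and 0.10 for glucocorticoid genes, and 4992 genes (2551 higher, 2441 lower) between 24 and 16 weeks. Quantile normalization gave 562 genes at least 2-fold higher and 389 lower than wild type, medians of 1.88 for macrophage markers, 1.98 for foam cell genes, 1.04 for chemokines, -0.03 for B cell markers, 0.36 for interferon, 0.65 for cell cycle, -1.12 for contractile, 0.79 for modulated smooth muscle, 0.25 for endothelial, 0.60 for proteases, 0.54 for bone, 0.48 for LXR targets, -0.36 for cholesterol synthesis, 0.87 for complement, -0.48 for the Per phase and 0.11 for glucocorticoid genes, and 5034 genes (2572 higher, 2462 lower) against 16 weeks. With only the arrays of the groups compared, 3328 genes (1975 and 1353) differed from 16 weeks and 3266 (1873 and 1393) from 8 weeks. Array weights gave 8180 genes against wild type, 4823 of them lower, medians of -1.02 for contractile and -0.03 for Schwann cell genes, and 6296 genes (3122 and 3174) against 16 weeks. With 1 probe per gene the medians were 0.95 for cell cycle, -1.12 for contractile and -0.04 for immediate early genes. Without pools 3 and 6, marked in the labels with an unexplained sign, 200 genes (123 and 77) differed from 16 weeks. Without the 8-week arrays, an alternative chosen after seeing the data, 3399 genes were lower than wild type and 2446 (1519 and 927) differed from 16 weeks. Leaving out each pool in turn gave 3105 to 6237 genes against wild type (1717 to 2807 higher, 1344 to 3430 lower), 119 to 2572 against 16 weeks (79 to 1569 and 40 to 1003) and 2955 to 7020 against 8 weeks (1728 to 3453 and 1227 to 3567). The medians then ranged over 0.07 to 0.19 for efferocytosis, -0.01 to 0.04 for matrix, 0.56 to 0.69 for bone, 1.06 to 1.33 for complement, 0.39 to 0.49 for iron, 0.32 to 0.90 for erythroid, -0.38 to -0.28 for the Per phase, 0.43 to 0.60 for stress, 0.33 to 0.74 for interferon, -0.31 to -0.06 for fibroblast, -1.05 to -0.80 for contractile and -0.05 to 0.03 for TGF-beta genes. No paired analysis was possible because the groups share no pool numbers.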
